A study of Mus musculus with 18 samples.

Results

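The oxidative phosphorylation genes described here are all nuclear. They encode subunits of respiratory chain complexes I, III and IV and of ATP synthase, complex V, and assembly factors of complex I. They were taken by name: every probe set with a single platform gene symbol beginning with Nduf, Uqcr, Cox4, Cox5, Cox6, Cox7, Cox8 or Atp5, apart from Cox6a2. This gave 75 genes with 137 probe sets, of 15964 genes and 36701 probe sets in all. Transcript signals were compared between 3 kinds of mouse spleen cell, with 2 separately prepared samples of each. These are the interferon-producing killer dendritic cells (IKDC), the Plasmacytoid DC of the labels, here PDC, and the conventional dendritic cells (cDC). Each sample was hybridised to the Affymetrix array types U74A, U74B and U74C, so that 18 arrays served 6 samples. The design sets the populations against cDC as the control. Genotype, strain, age, treatment, the sorting gates and the number of mice behind a sample are not given in the sources used here, so p-values measure the spread between these samples only, part of which may be technical.

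The respiratory chain lies in the inner mitochondrial membrane. Complex I passes electrons from NADH to ubiquinone, complex III passes them on to cytochrome c, and complex IV reduces oxygen, and the proton gradient that these steps build is used by complex V to make ATP. Most subunits are encoded in the nucleus and are needed in fixed proportions with those encoded by mitochondrial DNA. In dendritic cells this pathway is known as a main source of ATP at rest, while activation is known to shift energy supply towards glycolysis.

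The deposited values are linear signal intensities that the authors scaled to one target level per array, and a level is compared only between samples on the same probe set. A probe set was tested if its signal reached 60 on at least 2 of the 6 arrays, which 99 member probe sets of 72 genes did, along with 23285 probe sets of 12193 genes in all. Of the 137 member probe sets, 77 reached 60 on all 6 arrays and 41 reached 200 on all 6, while 25 stayed under 60 on every array. No probe set was tested for 3 member genes: Cox7a1, the heart and muscle form of a complex IV subunit, Cox8a, a small complex IV subunit, and Ndufaf2, a complex I assembly factor. The median signal per array ran from 51.7 to 87.2, and precision is limited by the number of arrays.

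The labels were checked against cell markers. The 10 NK cell markers summed to 50215 and 55437 in IKDC, 5658 and 4106 in PDC, and 3225 and 4202 in cDC. The 10 conventional dendritic cell markers summed to 6682 and 5168 in IKDC, 31636 and 31816 in PDC, and 60323 and 52739 in cDC. The 8 plasmacytoid markers found summed to 8792 and 9922 in IKDC, 50570.2 and 57117 in PDC, and 11615 and 11928 in cDC. Each list was highest in the population it names, with NK cell markers highest in IKDC. In IKDC 2 of the 10 conventional dendritic cell genes stayed under 60: Cd86, a costimulatory ligand, and Zbtb46, a transcription factor of these cells. Zbtb46 did so in PDC too. The genes of this list did not all follow its sum. Itgax, an integrin gene, had 1248.9 and 1358.9 in IKDC, 238.4 and 338.7 in PDC, and 1556.1 and 2614.2 in cDC. Cadm1 had 212.7 and 192.2 in IKDC, 6473 and 7591.1 in PDC, and 3579.1 and 4340.8 in cDC. Markers of other cells also differed between the populations. The erythroid list summed to 14865 and 17627 in IKDC, 22951 and 10086 in PDC, and 1249.5 and 2156 in cDC. None of its 6 found genes was under 60 in both samples of a population. Most of the sum in IKDC and PDC was Hba-a1, with 12059.9 and 13455.5 in IKDC and 21120.7 and 8068 in PDC. Its cDC signals were 515.8 and 1348.3. Slc4a1 had 357.3 and 309.5 in IKDC, 360.8 and 384.3 in PDC, and 373.5 and 308.6 in cDC. The B cell list summed to 11371 and 7038 in IKDC, 14491 and 10024 in PDC, and 1826 and 1896 in cDC. The macrophage and monocyte list summed to 730.0 and 774 in IKDC, 2675 and 2986 in PDC, and 5839 and 5979 in cDC. Within it Cd68 was highest in PDC. The T cell list summed to 1046 and 635 in IKDC, 578 and 399 in PDC, and 275 and 121 in cDC. The pancreas list summed to 4872 and 3955 in IKDC, 7921 and 9097 in PDC, and 1294 and 1399 in cDC. Most of its PDC sum was Klk1. The part of these other cells in the results below was not tested. In such bulk samples, fewer cells of a type and less RNA per cell cannot be told apart.

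The tested respiratory chain probe sets had median differences near 0 between the populations, and their 2 cDC samples differed from each other. Over the 99 tested member probe sets, the first cDC sample exceeded the second on 76 probe sets, or 76.8%, with a median gap of 0.39 on the log2 scale. Over all 23285 tested probe sets the first exceeded the second on 51.0%, with a median gap of 0.01. In IKDC the first sample was the higher on 47 of the 99 probe sets with a median gap of -0.03, and in PDC on 56 with a median gap of 0.10. Relative to each probe set's mean over the 6 samples, the median member stood at 0.02 and 0.00 in IKDC, 0.09 and -0.02 in PDC, and 0.19 and -0.19 in cDC on the log2 scale. The IKDC and PDC samples therefore lay between the 2 cDC samples. The cDC gap was 0.49 for complex I, 0.48 for complex III, 0.31 for complex IV and 0.20 for complex V. On 22 member probe sets the 2 cDC samples were more than 2-fold apart, or 22.2%, beside 22.0% of all tested probe sets, and the first cDC sample was the higher on 20 of the 22. Cox6c, a structural subunit of complex IV, had 2356.1 and 1163.0 in the 2 cDC samples, and Uqcrq, a small subunit of complex III, had 897.6 and 348.4. Atp5md, a small membrane subunit of ATP synthase, had 1411.5 and 509.3, and Ndufaf8, a complex I assembly factor, had 940.0 and 445.1. These 4 have the highest mean signals of the 22 and were chosen for display after their values were seen. In IKDC 4 member probe sets, or 4.04%, were more than 2-fold apart, beside 19.5% of all tested, and in PDC 10, or 10.1%, beside 26.8% of all. Among probe sets with a mean signal of 200 or more, these shares in cDC were 15.8% of members and 8.66% of all. They were 1.75% and 6.52% in IKDC, and 1.75% and 12.2% in PDC.

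**Figure D1:**
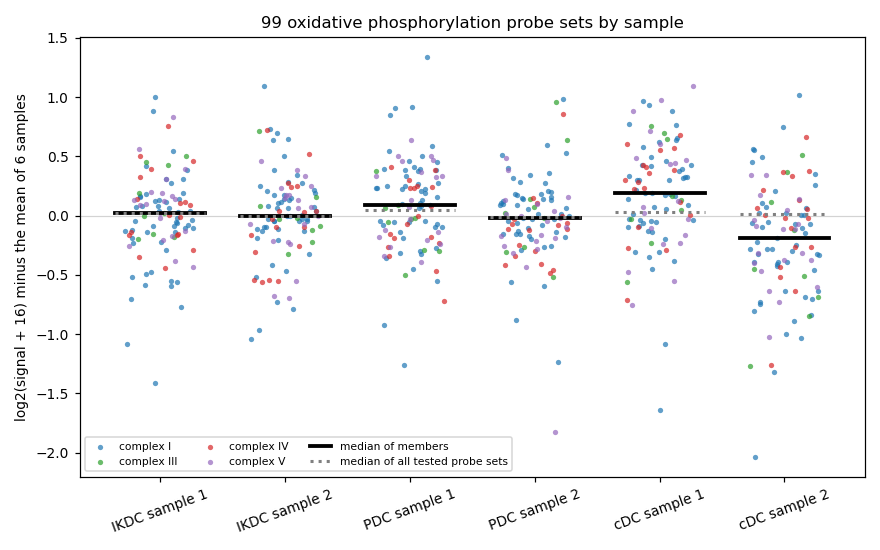
Each point is 1 of the 99 tested member probe sets in 1 sample, as log2(signal + 16) minus that probe set's mean over the 6 samples, coloured by complex. The black bars, medians of the members, lie at 0.19 and -0.19 in the 2 cDC samples and between -0.02 and 0.09 in the IKDC and PDC samples, and the dotted bars are medians of all tested probe sets.

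Other measures of the 2 cDC samples are given beside this gap, and their part in it was not tested. For the Gapdh control on U74A the ratio of 3' to 5' signal, which rises with RNA shortening, was 4.74 and 4.13 in the cDC samples. It was 3.34 and 3.59 in IKDC and 6.0 and 3.19 in PDC. On U74B it was 3.17 and 3.84 in IKDC, 5.11 and 2.97 in PDC, and 4.59 and 4.05 in cDC, and on U74C 4.65 and 3.97 in IKDC, 5.45 and 3.77 in PDC, and 5.84 and 5.29 in cDC. The neutrophil markers summed to 885 and 2671 in the 2 cDC samples, 339.7 and 305 in IKDC, and 839.6 and 261 in PDC. Ngp, with 42.3 and 955.3, made the largest part of the cDC gap. Elane went the other way in cDC, with 155.4 and 110.9, and Mpo, a granule enzyme, was under 60 there. The sign of the median difference from cDC over all tested members changed with the cDC sample left out. The median log2 difference of the tested members was -0.02 for IKDC minus cDC with all samples, 0.19 without the first cDC sample and -0.17 without the second. For PDC minus cDC it was -0.02 with all samples, 0.26 without the first cDC sample and -0.23 without the second.

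To ask whether the populations differ in respiratory chain transcripts, each probe set was fitted with limma on log2(signal + 16), a scale that understates changes of low signals, and p-values were adjusted over all 23285 tested probe sets. A probe set is called at an adjusted p under 0.05. In IKDC against cDC, 4 of the 99 member probe sets were called, 2 higher and 2 lower in IKDC, or 4.04%. Among all tested probe sets 5.60% were called, 2.68% higher and 2.92% lower in IKDC. In PDC against cDC no member was called by limma, where 3.65% of all tested probe sets were, 1.73% higher and 1.92% lower in PDC. Of the members, 12 had an unadjusted p under 0.05 there, 9 higher and 3 lower in PDC, or 12.1%, beside 14.9% of all tested probe sets. In IKDC against PDC 1 member was called, lower in IKDC, where 4.45% of all tested probe sets were, 2.06% higher and 2.39% lower in IKDC. The member share in IKDC against cDC was near that of all probe sets. Signals of the 2 populations overlapped on 58 of the 99 members in IKDC against cDC, beside 11274 of all 23285 tested probe sets. They overlapped on 64 members beside 13663 of all in PDC against cDC, and on 58 beside 13118 in IKDC against PDC. The 2 comparisons with cDC share the cDC samples, so their results are not independent of each other.

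Differences of the members were small beside those of other probe sets. The median size of the log2 difference, without its sign, was 0.266 for members and 0.471 for all tested probe sets in IKDC against cDC. It was 0.283 and 0.398 in PDC against cDC, and 0.218 and 0.405 in IKDC against PDC. The median standard error was 0.354 for members and 0.431 for all, and a mean signal of 200 or more was reached by 57 of the 99 members and 8733 of all tested probe sets. Among these brighter probe sets 3.51% of members and 10.1% of all were called in IKDC against cDC. The median size for the 57 members was 0.235 in IKDC against cDC, 0.283 in PDC against cDC and 0.210 in IKDC against PDC, and for all 8733 such probe sets 0.410, 0.341 and 0.355 in the same order. A missed threshold does not show equality, so the 95% intervals of the differences were also counted. The interval lay wholly within 1 log2 unit on either side of 0 for 37 of the 99 members in IKDC against cDC, 42 in PDC against cDC and 49 in IKDC against PDC. For the remaining members the interval reached beyond 1 log2 unit. Over all tested probe sets the share wholly within 1 unit was 17.5%, 20.5% and 19.8% in the same order.

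**Figure D2:**
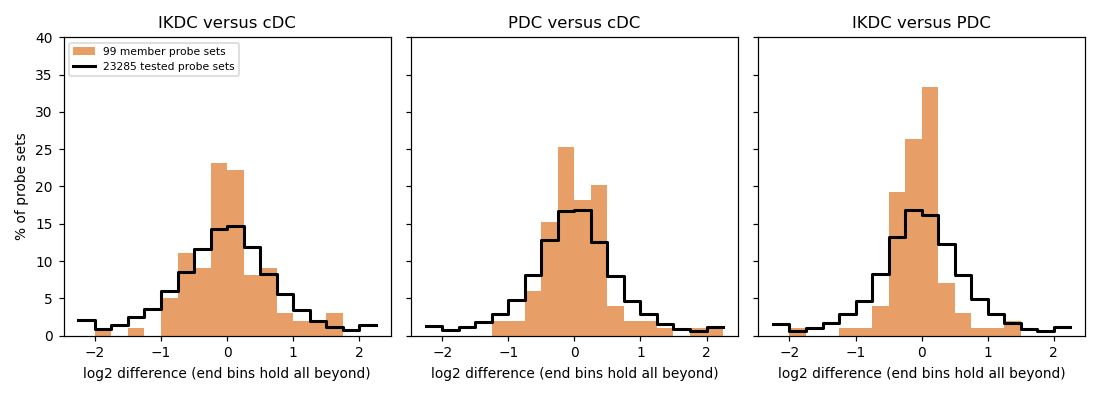
Share of probe sets, in percent, by log2 difference in bins of 0.25, for the 99 member probe sets (bars) and all 23285 tested probe sets (line) in the 3 comparisons. The bars are more concentrated around 0 than the line: 90.9%, 92.9% and 94.9% of members lay within 1 log2 unit, against 80.8%, 84.6% and 84.7% of all.

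The called genes were 1 each of complexes IV and V, higher in IKDC, and a pair of accessory subunits of complex I, lower in IKDC. Atp5o encodes the OSCP subunit, which ties the peripheral stalk of ATP synthase to its catalytic head. Its signals were 721.3 and 638.2 in IKDC, 510.5 and 533.1 in PDC, and 279.9 and 362.9 in cDC. Both IKDC samples lay above both PDC samples, and those above both cDC samples. The signal averaged 679.8 ± 58.8 in IKDC and 321 ± 58.7 in cDC (SD, n = 2 each), a log2 difference of 1.05 ± 0.27 (SE) with an adjusted p of 0.0465 in limma. The PDC minus cDC difference of 0.68 ± 0.27 had an adjusted p of 0.258.

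Cox7a2 encodes the widely expressed form of subunit VIIa of complex IV. On probe set 168429_r_at its signals were 488.3 and 589.3 in IKDC, 332.7 and 648.0 in PDC, and 207.0 and 137.3 in cDC. On probe set 93820_at they were 577.8 and 487.5 in IKDC, 238.5 and 362.1 in PDC, and 271.6 and 209.5 in cDC. IKDC was above cDC on both probe sets without overlap, and PDC on the first probe set only. The IKDC minus cDC difference was 1.58 ± 0.41 (SE) on the first with an adjusted p of 0.0497 in limma, and 1.1 ± 0.31 on the second with an adjusted p of 0.0622. Only the first therefore passed the threshold, and narrowly.

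Ndufa1 encodes a small membrane subunit of complex I that is needed for its assembly. Its signals on probe set 98117_at were 40.2 and 31.0 in IKDC, 113.5 and 73.8 in PDC, and 126.4 and 118.7 in cDC. Both IKDC values were under 60 and below all the others. IKDC was at least 2.04-fold lower than cDC, taking 60 as the upper limit of the IKDC signals, with a log2 difference of -1.43 ± 0.37 (SE) and an adjusted p of 0.0465 in limma. The second Ndufa1 probe set stayed under 60 in every sample, with a highest signal of 49.7, and was not tested.

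Ndufa3, an accessory subunit of complex I, gave unlike readings on its 2 tested probe sets. On probe set 102097_f_at its signals were 10.1 and 17.8 in IKDC, 115.4 and 70.4 in PDC, and 120.1 and 67.0 in cDC. Both IKDC values were far under 60, and IKDC was at least 1.5-fold lower than cDC and than PDC. The log2 difference was -1.84 ± 0.45 (SE) for IKDC minus cDC with an adjusted p of 0.0353 in limma, and -1.84 ± 0.45 for IKDC minus PDC with an adjusted p of 0.0409. On the brighter probe set 96915_f_at the signals were 711.7 and 692.2 in IKDC, 649.4 and 690.5 in PDC, and 982.1 and 512.1 in cDC. There IKDC lay within the range of cDC, and the differences were -0.02 ± 0.32 for IKDC minus cDC and 0.07 ± 0.32 for IKDC minus PDC. The suffix of both probe set names marks probes shared with other transcripts, and which transcript each reading follows was not tested.

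**Figure D3:**
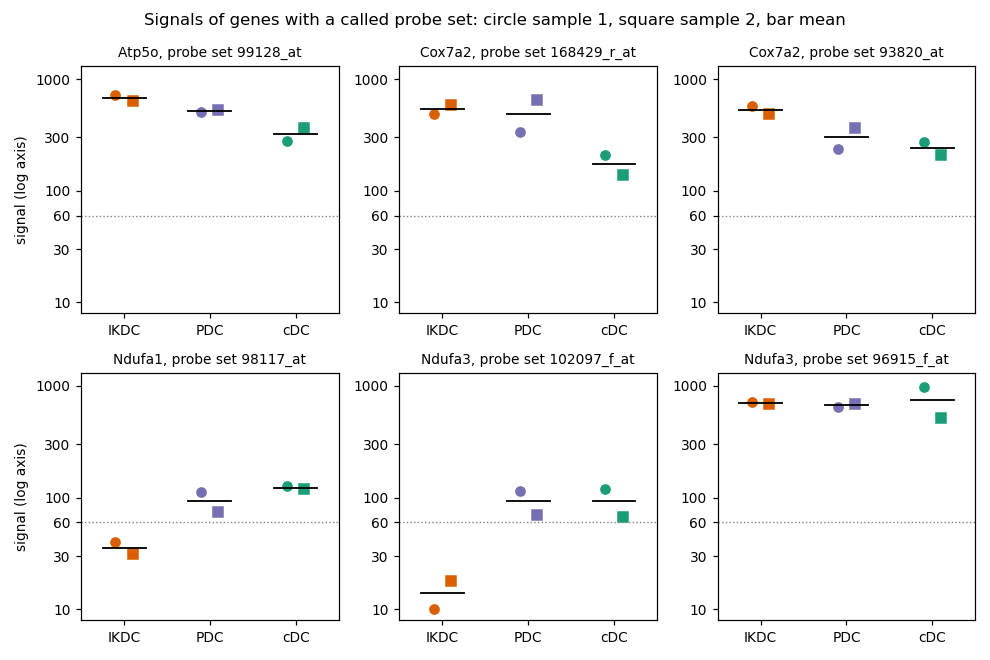
Signal, on a log axis, of each sample on the called probe sets and the second tested probe set of Cox7a2 and Ndufa3, with circles for sample 1, squares for sample 2 and bars for the mean of 2. The dotted line marks a signal of 60. Atp5o and Cox7a2 are above cDC in both IKDC samples, Ndufa1 and 1 Ndufa3 probe set are under 60 in both, and the other Ndufa3 probe set is at 711.7 and 692.2 in IKDC.

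The calls against cDC were lost when any 1 IKDC or cDC sample was left out. With either IKDC sample left out, or the second cDC sample, none of the 4 was called in IKDC against cDC, and without the first cDC sample none of the 4 was either. Calls over all tested probe sets also fell in these settings. There 1 of the compared populations had a single sample, which was assumed to vary like the others. The cause of the fall was not tested. The log2 differences stayed between 0.87 and 1.23 for Atp5o, between 1.31 and 1.85 for Cox7a2 (168429_r_at), between -1.56 and -1.30 for Ndufa1 and between -2.20 and -1.48 for Ndufa3 (102097_f_at). The Ndufa3 call against PDC was lost without either IKDC sample, either cDC sample or the first PDC sample.

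The promoters of the 4 genes are shown because the respiratory chain genes are often described as sharing binding motifs of nuclear respiratory factors. The windows run from 250 bases before the RefSeq transcription start to 50 after it, on the strand of the gene in build GRCm38.p6. Capitals mark GCGCA, any base and GCGC (NRF1), CCGGAAG (ETS family, which includes GABP) and AAGATGG (YY1), searched on both strands with overlaps allowed. They lie at chr16:91931581-91931880 (minus strand) for Atp5o, chr7:3617123-3617422 (plus strand) for Ndufa3, chr9:79759804-79760103 (minus strand) for Cox7a2 and chrX:37191189-37191488 (minus strand) for Ndufa1.
Atp5o: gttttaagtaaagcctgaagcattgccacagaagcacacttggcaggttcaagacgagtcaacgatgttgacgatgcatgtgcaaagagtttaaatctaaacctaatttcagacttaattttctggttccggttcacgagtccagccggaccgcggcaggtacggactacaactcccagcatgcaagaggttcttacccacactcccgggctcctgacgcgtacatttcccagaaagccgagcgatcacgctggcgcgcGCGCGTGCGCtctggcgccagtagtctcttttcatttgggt
Ndufa3: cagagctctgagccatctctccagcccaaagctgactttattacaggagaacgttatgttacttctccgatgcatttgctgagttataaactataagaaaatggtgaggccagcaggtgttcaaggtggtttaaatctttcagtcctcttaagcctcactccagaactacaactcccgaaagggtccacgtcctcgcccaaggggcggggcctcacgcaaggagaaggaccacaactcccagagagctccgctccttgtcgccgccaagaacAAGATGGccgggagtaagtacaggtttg
Cox7a2: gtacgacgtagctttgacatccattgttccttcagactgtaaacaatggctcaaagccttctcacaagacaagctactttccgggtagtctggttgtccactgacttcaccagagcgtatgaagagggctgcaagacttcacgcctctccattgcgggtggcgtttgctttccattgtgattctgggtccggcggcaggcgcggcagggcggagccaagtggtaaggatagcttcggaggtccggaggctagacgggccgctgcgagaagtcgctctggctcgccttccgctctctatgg
Ndufa1: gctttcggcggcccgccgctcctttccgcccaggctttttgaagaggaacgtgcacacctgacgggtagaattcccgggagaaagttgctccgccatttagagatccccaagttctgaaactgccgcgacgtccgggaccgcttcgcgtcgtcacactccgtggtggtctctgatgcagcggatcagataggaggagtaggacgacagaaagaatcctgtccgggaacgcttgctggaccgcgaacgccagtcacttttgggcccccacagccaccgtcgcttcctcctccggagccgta
The Atp5o window held 1 NRF1 match, just after the transcription start, and the Ndufa3 window 1 YY1 match, while these letters were in neither of the other two. Promoter windows were given for 63 member genes, 68 windows in all. Of these 17.6% held the NRF1 motif, 23.5% the ETS motif and 14.7% the YY1 motif, and 50.0% held at least 1 of them. Over the 21263 windows of all protein-coding genes the shares were 6.38%, 11.6% and 6.24%, with 21.7% for at least 1. A match describes the letters of the window and is not evidence of binding.

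The core subunits of complex I, which carry the electron path, had 10 tested probe sets of 6 genes. By their fitted difference 8 of the 10 were higher in IKDC than in cDC, beside 11470 of all 23285 tested probe sets. Their median log2 difference was 0.53, beside -0.01 over all tested probe sets, and none was called. With 1 probe set per gene, the one of highest mean signal, the differences ran from -0.11 for Ndufv1 to 0.76 for Ndufs8. Ndufs1, the largest subunit, with iron-sulphur clusters of the electron-input arm, had 3 tested probe sets. On 93572_at its signals were 483.0 and 417.2 in IKDC, 217.0 and 372.2 in PDC, and 246.3 and 291.7 in cDC. On 139979_at they were 284.3 and 360.2 in IKDC, 337.5 and 462.9 in PDC, and 160.8 and 43.1 in cDC. The 2 cDC values on 139979_at were far apart, and all IKDC and PDC values exceeded them. Its log2 difference was 1.72 ± 0.53 (SE) for IKDC minus cDC, with an adjusted p of 0.0975 in limma, and 2.01 ± 0.53 for PDC minus cDC, with an adjusted p of 0.0714. The size depends on which cDC sample is used. Without the first cDC sample, which leaves cDC with 1 sample at 43.1 that was assumed to vary like the other groups, the differences were 2.51 and 2.80 with adjusted p-values of 0.0301 and 0.0266. Without the second they were 0.93 and 1.22 with adjusted p-values of 0.364 and 0.313. On the third probe set, 139980_g_at, the signals were 142.6 and 153.3 in IKDC, 17.2 and 85.7 in PDC, and 9.5 and 92.6 in cDC. There the second cDC sample was the higher, the reverse of 139979_at, and the IKDC minus PDC difference was 1.5 ± 0.83, against -0.29 ± 0.53 on 139979_at.

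Ndufs3, a core subunit of the arm that leads to ubiquinone, had signals on 164416_at of 83.2 and 71.7 in IKDC, 175.6 and 68.3 in PDC, and 19.9 and 21.9 in cDC. On its second probe set, 96899_at, the signals were 555.0 and 623.3 in IKDC, 524.9 and 664.1 in PDC, and 492.6 and 429.6 in cDC. Both probe sets had cDC lowest. On the first, both cDC values were under 60 and below both IKDC values. The IKDC values there lay under 122.7, which unspiked controls reached on U74B, so no least fold is given. The values gave an IKDC minus cDC log2 difference of 1.34 ± 0.54 on the first and 0.34 ± 0.27 on the second, and neither was called. A further core gene is Ndufs8, an iron-sulphur subunit. It had 3316.9 and 5951.8 in IKDC, 3838.8 and 4023.4 in PDC, and 3111.4 and 2189.7 in cDC, with an IKDC minus cDC difference of 0.76 ± 0.30 and an adjusted p of 0.200. Ndufv1, which binds NADH, had 1257.9 and 1290.1 in IKDC, 1462.2 and 1259.7 in PDC, and 1418.8 and 1336.4 in cDC. Its values overlapped in PDC and cDC, and its IKDC minus cDC difference was -0.11 with a 95% interval from -0.67 to 0.45. The core subunits thus did not all share a direction.

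The accessory subunits of complex I, which surround the core, counted 35 tested probe sets of 26 genes. Apart from the 2 called lower in IKDC, none passed in any comparison, and the median log2 difference was 0.01 for IKDC minus cDC, 0.00 for PDC minus cDC and -0.12 for IKDC minus PDC. Ndufb5, a membrane-arm subunit, had 1887.0 and 1955.9 in IKDC, 1927.4 and 1743.7 in PDC, and 2692.6 and 1904.1 in cDC. Its PDC and IKDC values overlapped, and the higher cDC value came from the first cDC sample. In PDC against cDC the accessory subunits Ndufb10 and Ndufv3, named after their values were seen, had an unadjusted p under 0.05, with log2 differences of 1.05 and 0.96 and adjusted p-values of 0.134 and 0.293. The 7 probe sets of complex I assembly factors had a median of -0.16 for IKDC minus cDC, and none was called. Ndufaf6 had 110.1 and 63.7 in IKDC, 42.3 and 85.2 in PDC, and 148.9 and 169.4 in cDC, with a PDC minus cDC difference of -1.19 ± 0.58 and an adjusted p of 0.386.

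Complex III had 9 tested probe sets of 7 genes, and none was called. Uqcrc2, a core protein of the complex, had 966.9 and 1009.5 in IKDC, 872.3 and 748.5 in PDC, and 1750.8 and 1390.7 in cDC. Both cDC samples were above all others, with a log2 difference of -0.65 ± 0.26 (SE) for IKDC minus cDC (adjusted p 0.206) and -0.94 ± 0.26 for PDC minus cDC (adjusted p 0.0899). Uqcrc1, the partner core protein, was also highest in both cDC samples. Its signals on 101989_at were 523.2 and 516.3 in IKDC, 556.9 and 420.4 in PDC, and 576.0 and 567.6 in cDC. Its differences were -0.13 ± 0.27 for IKDC minus cDC and -0.23 ± 0.27 for PDC minus cDC on that probe set, and -0.44 ± 0.38 and -0.57 ± 0.38 on 109802_f_at, and none was called. Uqcr11, a small subunit, had 65.1 and 81.2 in IKDC, 32.5 and 99.6 in PDC, and 24.4 and 8.7 in cDC, so that both cDC values were under 60 and IKDC was at least 1.21-fold higher, with an adjusted p of 0.147. Uqcrb, which helps form the ubiquinone site and was named after its values were seen, had 1081.7 and 742.9 in IKDC, 742.0 and 1190.9 in PDC, and 643.3 and 415.7 in cDC. Uqcr11 and Uqcrb were thus lowest in cDC, and Uqcrc2 and Uqcrc1 highest there.

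Complex IV had 18 tested probe sets of 13 genes. Of the 12 for widely expressed subunits, the Cox7a2 probe set was the only one called in IKDC against cDC. Cox4i1, the regulatory subunit IV, had 353.9 and 325.4 in IKDC, 651.9 and 465.7 in PDC, and 748.1 and 508.2 in cDC on probe set 109817_f_at. Both IKDC samples were below all others, with a log2 difference of -0.83 ± 0.29 for IKDC minus cDC and an adjusted p of 0.147. Its 3 probe sets shared that sign against cDC, with -0.74 and -0.48 on the others. Against PDC they did not: the IKDC minus PDC difference was -0.67 on 109817_f_at, -0.32 on 102124_f_at and 0.61 on 93788_at, where PDC minus cDC was -1.10 ± 0.36 with an adjusted p of 0.161. Cox5a, a matrix-side subunit, had 5343.4 and 5139.6 in IKDC, 4408.8 and 4649.5 in PDC, and 6108.0 and 4673.8 in cDC. Its 95% interval for IKDC minus cDC ran from -0.53 to 0.48. Cox5b, a zinc-binding subunit, had a difference of 0.13 ± 0.27 for IKDC minus cDC, and Cox6a1, the widely expressed form of subunit VIa, had 1981.3 and 2209.5 in IKDC, 2172.0 and 2025.5 in PDC, and 1507.3 and 1268.9 in cDC on 99631_f_at. On that probe set both IKDC and PDC samples were above both cDC samples, with differences of 0.59 ± 0.26 and 0.60 ± 0.26 and adjusted p-values of 0.242 and 0.308, while the second Cox6a1 probe set had differences of 0.01 and 0.05.

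The 6 probe sets for tissue-restricted isoforms and relatives of complex IV subunits had a median log2 difference of -0.33 for IKDC minus cDC and -0.28 for PDC minus cDC, and none was called. Cox7a2l, known for joining complexes III and IV into supercomplexes, had 630.5 and 479.5 in IKDC, 598.6 and 670.3 in PDC, and 909.0 and 1125.1 in cDC. Both cDC samples were the highest, with a difference of -0.86 ± 0.28 for IKDC minus cDC (adjusted p 0.107) and -0.66 ± 0.28 for PDC minus cDC (adjusted p 0.285). Its paralogue Cox7a2 lay on the other side, with cDC lowest. Cox8c, known from testis, had 383.4 and 461.2 in IKDC, 581.5 and 385.2 in PDC, and 666.9 and 542.6 in cDC on 100965_at, and its probe sets differed in sign. Cox8b, the heart and muscle form, had a difference of -0.23 for IKDC minus cDC.

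Complex V had 20 tested probe sets of 14 genes. None of the 8 for the catalytic F1 head was called, and their median log2 difference was 0.20 for IKDC minus cDC and 0.15 for PDC minus cDC. Atp5a1, the alpha subunit of the head, had 3638.7 and 3063.2 in IKDC, 2700.3 and 2760.6 in PDC, and 1975.3 and 2694.2 in cDC. The 3 populations stood in the order IKDC, PDC, cDC without overlap. The lowest PDC value, 2700.3, was barely above the highest cDC value, 2694.2. The IKDC minus cDC difference of 0.53 ± 0.27 had an adjusted p of 0.331 in limma. Of the 12 for the peripheral stalk and the membrane part, Atp5o was called. Atp5pb, subunit b of the same stalk, had 100.0 and 84.9 in IKDC, 73.7 and 88.5 in PDC, and 143.8 and 132.8 in cDC. Unlike Atp5o it was highest in both cDC samples, with a difference of -0.51 ± 0.33 for IKDC minus cDC and an adjusted p of 0.441. Atp5g1, an isogene of the membrane ring subunit c, had differences of -0.25 and -0.53 on its 2 probe sets, and Atp5g2, another, of -0.03 and 0.22, for IKDC minus cDC.

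**Figure D4:**
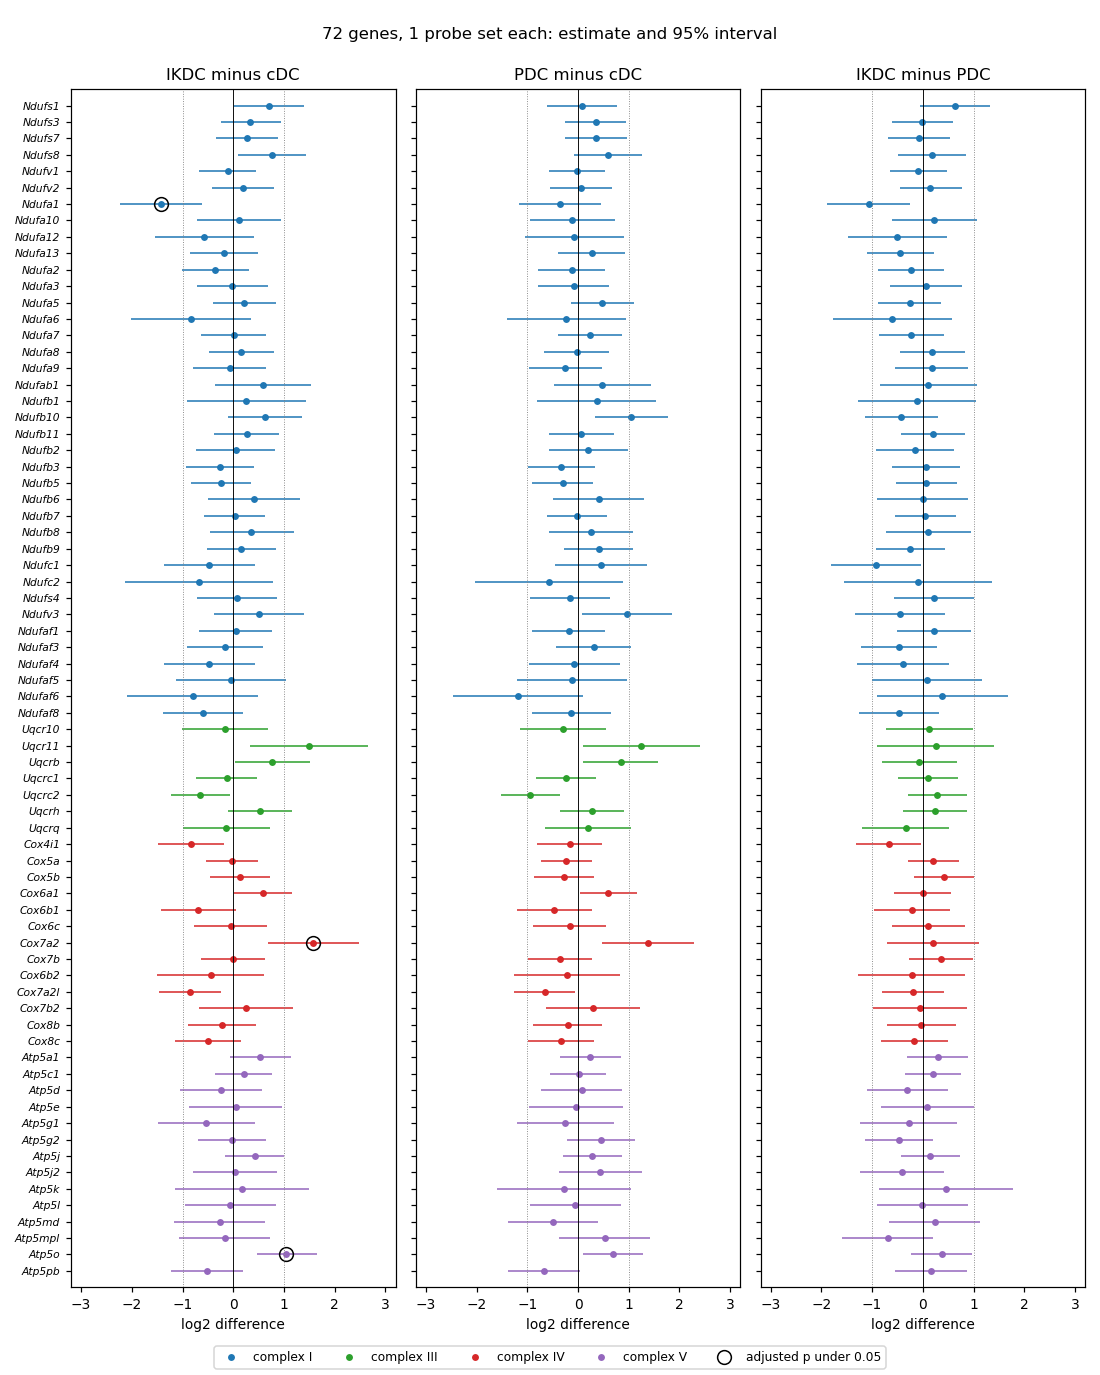
Fitted log2 difference (point) and 95% interval (line) for 72 genes in 3 comparisons, each gene by its tested probe set of highest mean signal, coloured by complex and with core subunits of complex I first. Dotted lines mark 1 log2 unit. Most intervals cross 0, and the ringed genes past the adjusted threshold are Ndufa1, Cox7a2 and Atp5o in IKDC minus cDC, at -1.43, 1.58 and 1.05.

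Probe sets of 1 gene often differed, which limits single readings. Of the members, 21 genes had several tested probe sets, 48 in all. All probe sets of a gene had the same sign in 13 of the 21 genes for IKDC minus cDC, 13 for PDC minus cDC and 9 for IKDC minus PDC, and the median range over a gene's probe sets was 0.477, 0.414 and 0.477 on the log2 scale. Ndufa6, an accessory subunit, had 196.4 and 171.1 in IKDC, 76.7 and 46.6 in PDC, and 125.7 and 55.7 in cDC on 133063_at. On 132435_at it had 136.7 and 92.3 in IKDC, 193.7 and 165.2 in PDC, and 128.4 and 347.1 in cDC. IKDC was above PDC on the first and below PDC on the second, with IKDC minus PDC differences of 1.39 ± 0.58 and -0.60 ± 0.53, and neither was called. Atp5d, the delta subunit of the head, ranged from -0.84 to 0.55 over 4 probe sets for IKDC minus cDC.

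**Figure D5:**
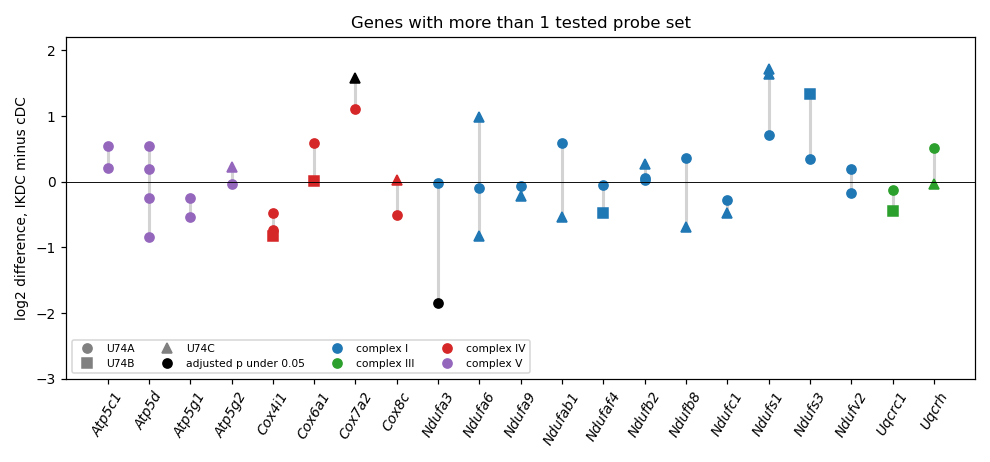
Fitted log2 difference, IKDC minus cDC, of every tested probe set of the 21 genes with more than 1, with marker shape for the array type, colour for the complex, black for an adjusted p under 0.05 and a grey line joining probe sets of a gene. Ndufa3 spans -1.84 to -0.02 and Ndufa6 -0.83 to 0.98, while both Cox7a2 probe sets and all 3 Ndufs1 probe sets lie above 0.

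Other genes of the pathway were read from a list of 71 covering complex II, cytochrome c, assembly and copper delivery, carriers and regulators of mitochondrial biogenesis, of which 61 were tested, with 93 probe sets. In IKDC against cDC 1 of the 93 was called, or 1.08%, beside 5.60% of all tested probe sets. In IKDC against PDC 1 was called, or 1.08%, beside 4.45% of all. In each case it was Myc, higher in IKDC. In PDC against cDC limma called none, beside 3.65% of all. There the unadjusted p was under 0.05 for 3, or 3.23%, beside 14.9% of all. Myc, a transcription factor of growth with targets among mitochondrial genes, had 218.6 and 198.8 in IKDC, 49.2 and 24.1 in PDC, and 51.8 and 39.3 in cDC. Both IKDC samples were far above the others, which were all under 60. IKDC was at least 3.47-fold higher than either population, with a log2 difference of 1.87 ± 0.39 (SE) against cDC (adjusted p 0.0154 in limma) and 2.13 ± 0.39 against PDC (adjusted p 0.00805). The 27 regulator probe sets, of 15 genes, had a median difference of 0.37 for IKDC minus cDC, -0.01 for PDC minus cDC and 0.42 for IKDC minus PDC. The medians over all tested probe sets were -0.01, -0.01 and -0.02. The member medians were -0.02, -0.02 and -0.01 in the same comparisons. In IKDC against cDC 20 of the 27 were higher and 7 lower in IKDC. The unadjusted p in limma was under 0.05 there for 5, or 18.5%, beside 18.9% of all tested probe sets. In IKDC against PDC it was for 6, or 22.2%, beside 14.5%. The regulators did not all share a direction: for IKDC minus cDC the tested Gabpa probe sets ran from -0.44 to 1.34, and Esrra had -0.76.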

How the data were processed

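Per the labels, RNA was amplified in a pair of rounds and read with GCOS 1.1.1, and the submitters' processing notes name MAS5. The deposited signal intensities were scaled by the authors, per the labels, to a target of 150 on each array, which makes a fold relative to total signal. No detection calls were used here. Signals were tested as log2(signal + 16) with limma 3.58.1 in R 4.3.3 (lmFit, eBayes with trend), per array type, with the 3 populations in 1 model and Benjamini-Hochberg adjustment over all array types. Symbols came from the platform annotation, and 16 further probe sets with several symbols were left out. The minimum of 60 is a weaker bound on U74B and U74C, where unspiked controls reached 122.7 and 148.7, than on U74A, where they reached 45.20. Probe sets named in the text were the called ones, those with the smallest adjusted p or highest mean signal in each list, a fixed set of subunits and discordant genes. The members and lists were chosen with earlier results of these data known. The fit was tested on simulated data. The 18 alternatives changed the pseudocount, filter, normalization, moderation, adjustment, block, probe sets and samples.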

Additional observations from a re-analysis of the deposited data

How the results depend on the processing

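The count of member probe sets called in IKDC against cDC, 4 as reported, was 2 with a pseudocount of 1, without the intensity trend and without suffixed probe sets. It was 1 with no filter, with quantile normalization and with median centring, and 0 to 5 when 1 sample was left out. It was 5 with only the 2 groups compared and 3 to 4 in the other settings apart from the block. The share called among all tested probe sets, 5.60% as reported, moved too: 4.96% with a pseudocount of 1, 3.06% with no filter, 5.14% with quantile normalization, 4.99% with median centring, 4.30% without the trend, 6.24% without suffixed probe sets, 8.19% with only the 2 groups compared and 2.66% to 7.66% with a sample left out. In IKDC against PDC the 1 call (Ndufa3) gave 0 with a pseudocount of 64, no filter, quantile normalization and only the 2 groups compared. It also gave 0 with a filter of 200, 1 probe set per gene and no suffixed probe sets, where that probe set was not tested. In PDC against cDC the count was 0 to 1 with a sample left out, the 1 being Ndufs1 without the first cDC sample. The member median for IKDC minus cDC was 0.15 with median centring, which put the median of all tested probe sets at 0.11, and it ran from -0.17 to 0.19 with a sample left out. For PDC minus cDC it ran from -0.23 to 0.26. The cause of these changes was not tested. Over the settings in which each was tested, the reported one included, Atp5o was called in 12 of 19, Ndufa1 in 10 of 18, Cox7a2 (168429_r_at) in 9 of 18 and Ndufa3 in 9 of 16 against cDC and 7 of 16 against PDC. The adjusted p of Atp5o ran from 0.0268 to 0.306. No named probe set called as reported changed sign in any of the alternatives run, while 74 of 2009 values that were never called did. Replicate numbers were not taken to pair the samples: differences between sample 1 and sample 2 correlated across probe sets at 0.0699 for IKDC with PDC, -0.0229 for IKDC with cDC and 0.0806 for PDC with cDC. With the replicate block 5 members were called in IKDC against cDC (7.09% of all tested probe sets), 0 in PDC against cDC and 1 in IKDC against PDC. Signals near 60 and the 2 samples per population limit what could be detected.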
